A study of Mus musculus with 29 samples.

Results

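The complement genes described here are 9 rows of the deposited RNA-seq matrix, chosen by gene symbol, of the 36172 gene rows in all: C1qa, C1qb, C1qc, C3, C4b, C3ar1, C5ar1, Serping1 and Cd55. They were followed across 29 mouse brain libraries from 2 NuTRAP lines, in which Cre recombination switches on EGFP-L10a, a ribosomal protein carrying a green fluorescent tag. The astrocyte line was Aldh1l1-Cre/Ert2+; NuTRAP+ (Aldh1l1-NuTRAP, 3 mice) and the microglial line was Cx3cr1-Cre/Ert2+; NuTRAP+ (Cx3cr1-NuTRAP, 6 mice). Every mouse carried 1 copy of each allele and was given tamoxifen by daily intraperitoneal injection on 5 consecutive days at about 3 months of age, so within a line the libraries compared share alleles and treatment, while comparisons between lines differ in the Cre allele. The study describes a longer wait between tamoxifen and dissection for the Cx3cr1-NuTRAP line, which cannot be told apart from the line itself. Both sexes were used in the study, and the sex of each mouse is not in the labels. From a half-brain homogenate, ribosomes were pulled down with an anti-GFP antibody (positive fraction), the unbound RNA was kept (negative fraction), and the cleared homogenate was the input. From the Aldh1l1-NuTRAP mice the positive and the negative fraction were used, and from the Cx3cr1-NuTRAP mice all 3 fractions, together with conventionally isolated RNA of brain tissue (whole tissue) from 5 of the 6 Cx3cr1-NuTRAP mice. The Cre of the microglial line is driven by Cx3cr1, which macrophages at the borders of the brain also express.

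Complement is a cascade of plasma and tissue proteins that tags surfaces for removal. C1q, assembled from the products of C1qa, C1qb and C1qc, starts the classical pathway, C4b and C3 are cleaved downstream of it and deposit on the target, and the receptors C3aR1 and C5aR1 sense the small fragments released from C3 and C5. Serping1 encodes C1 inhibitor, which blocks the C1 proteases, and Cd55 encodes decay-accelerating factor, which dismantles the enzymes that cleave C3. In the brain, C1q and the fragment receptors are best known from microglia, C4 is made by astrocytes among other cells, and complement is studied for its part in the removal of synapses.

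C1qa, C1qb and C1qc lie side by side on the minus strand of chromosome 4 (mm10), from 136895916 to 136898844, from 136880145 to 136886177 and from 136889802 to 136892914 in the deposited table. Because these chains move together in the data below, the stretches before the RefSeq starts of C1qb and C1qc are shown (RefSeq, GRCm38.p6, minus strand, 5′ to 3′). The capitals mark GAGGAA, the core of the binding site of PU.1, a transcription factor of the myeloid lineage, read on either strand. The C1qb stretch is chr4:136886201-136886450, and the C1qc stretch is chr4:136893066-136893164, the part of the window outside the annotated gene.
C1qb: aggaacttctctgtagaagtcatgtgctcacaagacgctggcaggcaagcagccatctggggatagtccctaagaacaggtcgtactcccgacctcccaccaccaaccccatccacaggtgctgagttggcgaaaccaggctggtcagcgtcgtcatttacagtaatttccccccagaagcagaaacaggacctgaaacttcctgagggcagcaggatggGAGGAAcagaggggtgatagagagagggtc
C1qc: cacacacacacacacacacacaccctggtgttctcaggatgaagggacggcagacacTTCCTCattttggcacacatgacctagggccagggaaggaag
The match began 30 bases before the start of C1qb and, as TTCCTC on the shown strand, 193 bases before the start of C1qc. Windows of 250 bases were matched for 6 of the 9 members. Those of C3, C3ar1, C5ar1 and Cd55 held no GAGGAA on either strand, and the windows of C1qa, C4b and Serping1 are not used here. Of 32851 windows of the same length over all genes, 23.3% held GAGGAA. The STAT-like letters TTCNNNGAA (7.02% of windows) were in none of the 6 windows, and the IRF-like letters GAAANNGAA (7.13% of windows) were in that of C5ar1. A match of letters describes the sequence and does not show that a factor binds there.

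Library totals ranged from 15486605 to 26857866 counts in the Cx3cr1-NuTRAP fractions and from 8782235 to 25137834 in the Aldh1l1-NuTRAP fractions, and the whole tissue of mouse 210 had the fewest, 4260949. Levels below are CPM, counts scaled to 1000000 per library. The labels held against marker genes: all 12 microglia markers were higher in the Cx3cr1-NuTRAP positive fraction than in input (median log2 fold change 3.53), and all 10 astrocyte markers were higher in the Aldh1l1-NuTRAP positive than negative fraction (3.13). Markers of border-associated macrophages rose with the microglial pulldown as well (6 of 6, median 3.13), with a summed level of 67.3 to 211 CPM beside 2646 to 6548 CPM for the microglia list. Of these 6, 3 were tested between negative fraction and input. The others met the count minimum against input only through the positive fraction, where they were higher. Markers of the choroid plexus, the epithelium that makes cerebrospinal fluid, rose in the astrocyte pulldown (6 of 6, median 2.18; 2922 to 3377 CPM summed, against 492 to 641 in the negative fraction). In the Aldh1l1-NuTRAP positive fraction the summed microglia markers were 128 CPM in mouse 290 and 68.1 and 71.2 CPM in mice 293 and 294. The whole tissue of mouse 210 had 463 CPM of microglia markers, against 329 to 367 in the other 4 mice. In such bulk RNA, fewer cells of a type and less RNA per cell cannot be told apart.

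**Figure D1:**
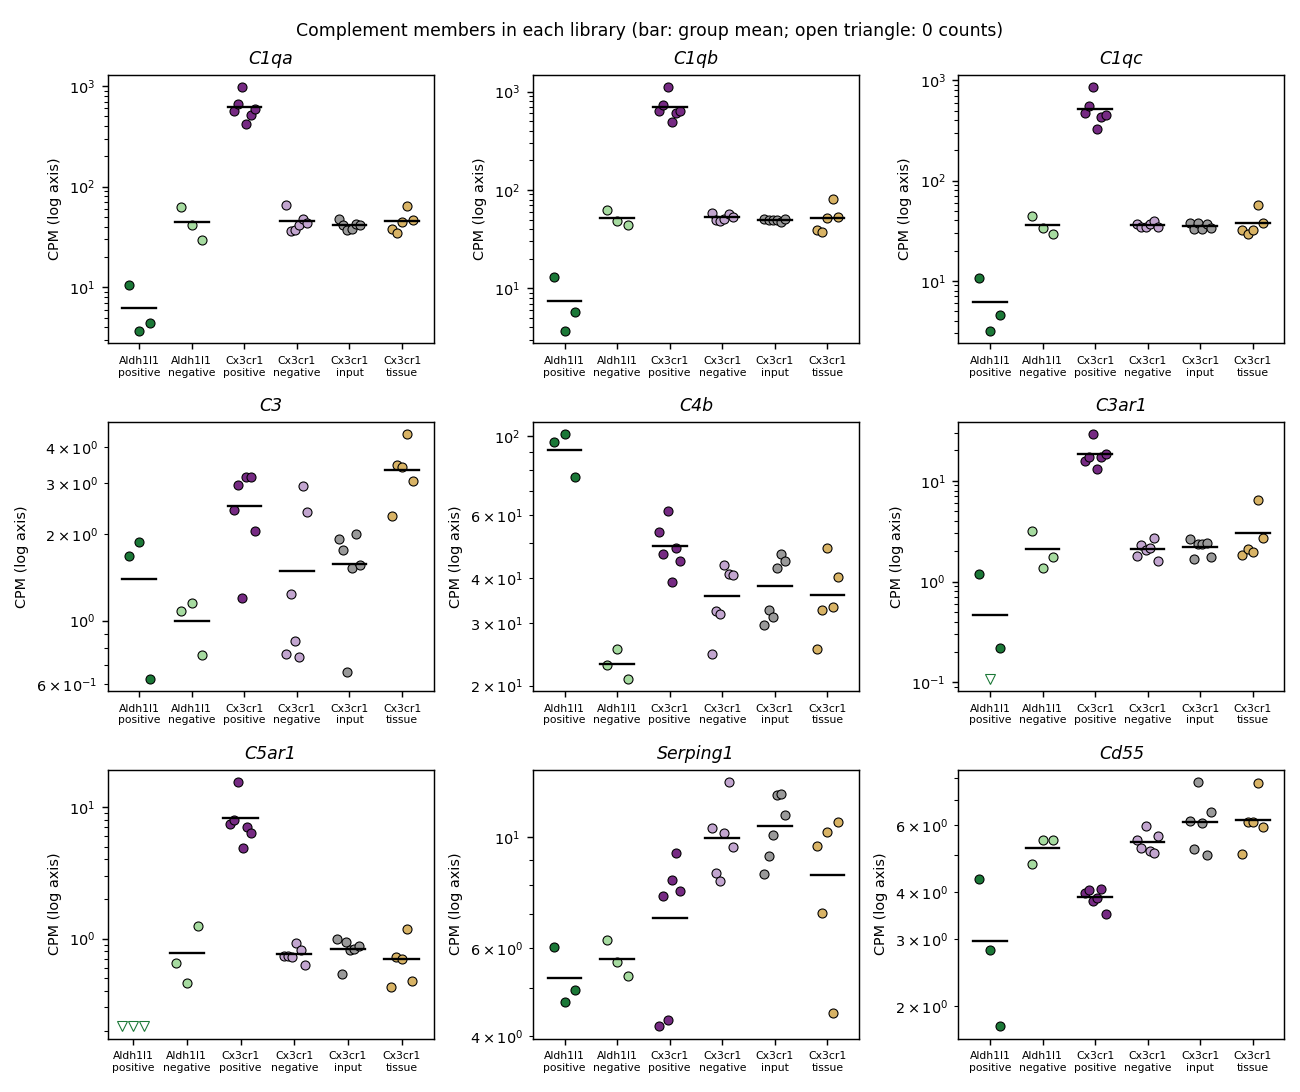
CPM of the 9 complement genes in each of the 29 libraries, on log axes, with a bar at the group mean and open triangles for libraries with 0 counts. C1qa, C1qb, C1qc, C3ar1 and C5ar1 stand apart in the Cx3cr1-NuTRAP positive fraction, C4b in the Aldh1l1-NuTRAP positive fraction, and C3 is highest on average in whole tissue.

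The C1q chains were the most abundant members in the microglial pulldown and had the largest fold changes over input. C1qa (Entrez 12259) had 414 CPM in the lowest, 575 in the median and 981 in the highest of the 6 Cx3cr1-NuTRAP positive fractions. Its input levels were 36.8, 41.4 and 47.9 CPM (lowest, median, highest), and its negative fractions gave 36.2, 42.4 and 66.1 CPM. The positive fractions lay far above every other library of the series, and mouse 194, which also had the most microglia marker RNA, was the highest. C1qb (Entrez 12260) ranged from 495 to 1121 CPM with a median of 641 in the positive fraction, against 47.7 to 50.4 CPM with a median of 49.9 in input. C1qc (Entrez 12262) ranged from 326 to 863 CPM with a median of 463 in the positive fraction, against 33 to 38.0 CPM with a median of 35.3 in input. For all 3 chains the ranges of positive fraction and input did not overlap. Log2 fold changes of positive fraction over input were 3.92 ± 0.19 for C1qa, 3.85 ± 0.17 for C1qb and 3.89 ± 0.21 for C1qc (± SE, n = 6 against 6), which is 15.2-fold, 14.4-fold and 14.8-fold, each in 6 of 6 mice. The edgeR adjusted p-values were 1.45e-08, 1.04e-08 and 2.12e-08.

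Against the other references of the same mice, which share these positive fractions, the C1q chains gave similar sizes. Over the negative fraction, log2 fold changes were 3.80 ± 0.22 for C1qa, 3.77 ± 0.18 for C1qb and 3.87 ± 0.20 for C1qc (edgeR adjusted p = 1.81e-08, 1.47e-08 and 1.47e-08). Over whole tissue they were 3.80 ± 0.24, 3.80 ± 0.26 and 3.84 ± 0.27 (edgeR adjusted p = 3.33e-07, 4.32e-07 and 5.16e-07, n = 6 against 5). Whole tissue itself held 34.8, 38.4, 44.5, 47.2 and 64.1 CPM of C1qa in the 5 mice, and the highest value was that of mouse 210. Negative fraction, input and whole tissue overlapped with each other for every chain.

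In the astrocyte pulldown the same chains were depleted. C1qa had 10.6, 3.67 and 4.39 CPM in the positive fractions of mice 290, 293 and 294, against 62.6, 41.2 and 29.9 CPM in their negative fractions. C1qb had 13, 3.66 and 5.73 CPM against 62.7, 47.8 and 44.4 CPM, and C1qc had 10.7, 3.14 and 4.58 CPM against 44.4, 33.9 and 29.5 CPM. Each positive fraction was below all negative fractions, and mouse 290, with the most microglia marker RNA of the 3, was the highest for each chain. Log2 fold changes of positive over negative fraction were -2.52 ± 0.48 for C1qa, -2.46 ± 0.46 for C1qb and -2.22 ± 0.46 for C1qc (± SE, n = 3 against 3; edgeR adjusted p = 0.0039, 0.00357 and 0.00558), lower in 3 of 3 mice. The 12 microglia markers fell in the same comparison, 12 of 12, with a median of -2.41 and a range from -3.09 to -1.20, and the C1q values lay inside that range. Set against the microglial pulldown, the astrocyte pulldown held 82.1-fold less C1qa, 77.4-fold less C1qb and 69.3-fold less C1qc (log2 -6.36 ± 0.49, -6.27 ± 0.51 and -6.11 ± 0.53; edgeR adjusted p = 1.02e-06, 1.51e-06 and 2.46e-06). Without mouse 290 these log2 differences were -6.98, -6.95 and -6.78.

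The proportions of the 3 chains were compared within libraries. The mean log2 ratio of C1qb over C1qa was 0.19 ± 0.05 (SD, n = 6) in the microglial positive fraction, 0.26 ± 0.14 in input, and 0.23 ± 0.20 (n = 3) in the astrocyte positive fraction. That of C1qc over C1qa was -0.28 ± 0.07, -0.22 ± 0.14 and -0.05 ± 0.15. The largest departure from the other libraries was the Cx3cr1-NuTRAP negative fraction of mouse 155, at -0.17 and -0.85, where C1qa was 66.1 CPM and C1qb 58.7 CPM, each the highest of the 6 negative fractions, and C1qc was 36.6 CPM. Within mice, the difference between positive fraction and input was -0.07 ± 0.14 for C1qb over C1qa and -0.05 ± 0.12 for C1qc over C1qa (SD, n = 6; exact sign-flip permutation test over mice, two-sided, p = 0.281 and 0.375). Over all 6 such tests, with the negative fraction and the astrocyte line included, the adjusted p-values of the exact test lay between 0.75 and 1.0, where the 3 Aldh1l1-NuTRAP mice could not have reached below 0.25 unadjusted. In the astrocyte line C1qc over C1qa was higher in the positive fraction in 3 of 3 mice, by 0.22 ± 0.26. Per kb of annotated exon, C1qa had 596 ± 187, C1qb 648 ± 200 and C1qc 267 ± 95.9 CPM in the microglial positive fraction (SD, n = 6). The value of C1qc depends on its annotated exon length of 1931 bases, against 1040 for C1qa and 1088 for C1qb.

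**Figure D2:**
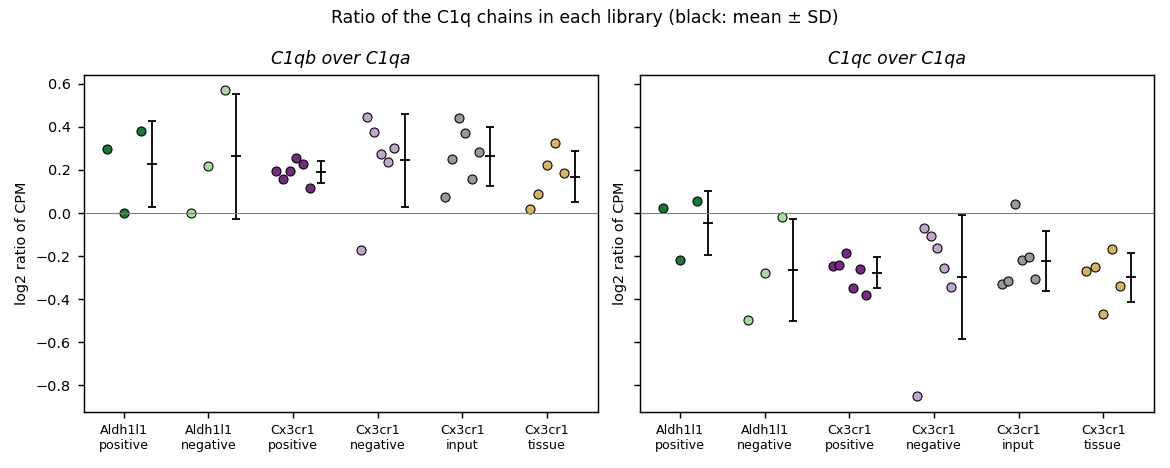
Log2 ratio of C1qb (left) and C1qc (right) to C1qa in each library by group, with black marks for the mean and SD. Ratios of the 6 Cx3cr1-NuTRAP positive fractions lie between 0.12 and 0.26 (left) and between -0.38 and -0.18 (right), and the negative fraction of mouse 155 lies lowest in both.

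C3ar1 and C5ar1, the receptors for the C3a and C5a fragments, were also concentrated in the microglial pulldown, at much lower levels than C1q. C3ar1 (Entrez 12267, chromosome 6, 122847140 to 122856157) ranged from 13.2 to 29 CPM with a median of 17.1 in the microglial positive fraction and from 1.69 to 2.62 CPM with a median of 2.36 in input. C5ar1 (Entrez 12273, chromosome 7, 16246743 to 16259540) ranged from 4.89 to 15.6 CPM with a median of 7.24, against 0.533 to 0.987 CPM with a median of 0.859. Neither range overlapped with input, and mouse 194 was again the highest for both. C3ar1 was 8.42-fold higher than input (log2 3.07 ± 0.20, edgeR adjusted p = 4.06e-08) and C5ar1 9.97-fold higher (3.32 ± 0.28, edgeR adjusted p = 4.98e-07), each in 6 of 6 mice. Over the negative fraction the log2 fold changes were 3.15 ± 0.20 and 3.45 ± 0.28 (edgeR adjusted p = 3.6e-08 and 3.67e-07), and over whole tissue 2.84 ± 0.32 and 3.72 ± 0.36 (edgeR adjusted p = 1.44e-05 and 5.14e-06). In whole tissue C3ar1 had 1.85, 1.98, 2.12 and 2.69 CPM in 4 mice and 6.49 CPM in mouse 210.

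In the astrocyte pulldown C5ar1 had 0 counts in all 3 positive fractions, while their negative fractions had 0.655, 0.457 and 1.24 CPM in mice 290, 293 and 294. With a floor of 3 counts per library, which is 0.176 CPM on average, C5ar1 was at least 46.5-fold lower than in the microglial positive fraction and at least 4.44-fold lower than in the negative fraction, counting error only. C5ar1 met the count minimum only through the microglial positive fraction in every comparison in which it was tested. The difference between the pulldowns had an edgeR adjusted p of 1.89e-05, and of 1.11e-06 without the low-count filter. That from the negative fraction did not enter the main test because of its low counts. Without the filter 4 members were called lower than in the negative fraction, C5ar1 beside the C1q chains. C3ar1 had 1.18, 0 and 0.217 CPM in the positive fractions and 3.19, 1.35 and 1.74 CPM in the negative fractions of the same mice. The groups did not overlap, and mouse 290 again had the most. The log2 fold change was -1.99 ± 0.99 (edgeR adjusted p = 0.13), and it passed with all groups in one fit (-1.98, adjusted p = 0.00676), with the mouse as a block (-2.26, adjusted p = 0.00683) and, at a larger size, without mouse 290 (-3.36, adjusted p = 0.00258). In the other 6 of 9 alternatives it did not pass, with adjusted p up to 0.371 and a log2 fold change of -1.53 at the smallest. The fit without the low-count filter was among these (-1.89, edgeR adjusted p = 0.174). With only these groups compared, C3ar1 met the count minimum only through the negative fraction, where it was higher. Between the pulldowns C3ar1 was 39.1-fold lower in the astrocyte line (log2 -5.29 ± 0.69, edgeR adjusted p = 5.57e-05), a size that rests on 14, 0 and 4.8 counts in the astrocyte positive fractions, below the count minimum that the microglial ones met, and moved to a log2 of -6.97 without mouse 290 and -4.60 without mouse 293.

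C4b, the murine C4 whose product is split by the C1 proteases, was the member most abundant in the astrocyte pulldown. C4b (Entrez 12268, chromosome 17, 34728381 to 34743897) had 95.9, 101 and 76.9 CPM in the positive fractions of mice 290, 293 and 294 and 22.9, 25.3 and 20.9 CPM in their negative fractions. The lowest positive fraction was above every other library of the series, the microglial positive fractions included. It was 5.04-fold higher in the positive than in the negative fraction (log2 2.33 ± 0.18, edgeR adjusted p = 8.89e-05, 3 of 3 mice) and 2.30-fold higher than in the microglial pulldown (1.20 ± 0.16, edgeR adjusted p = 7.56e-05). Within mice its log2 ratio was lower than the median of the 10 astrocyte markers in 3 of 3 mice, with a difference of -0.74 ± 0.33 (SD, n = 3), for which an exact permutation test cannot go below 0.25.

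C4b in the microglial line varied from mouse to mouse. The highest positive fractions were 61.6 (194) and 53.9 CPM (155), and the lowest was 39.1 CPM (209), with a median of 47.6 CPM. Input ranged from 29.5 to 46.8 CPM with a median of 37.7, and its lowest values were those of mice 155 and 194. The groups overlapped, and the positive fraction was higher in 4 of 6 mice. The log2 fold change was 0.39 ± 0.14 over input (edgeR adjusted p = 0.0352), 0.49 ± 0.14 over the negative fraction (0.0231) and 0.47 ± 0.16 over whole tissue (0.0254), while 7 of the 10 astrocyte markers fell against input, with a list median of -0.48. None of these 3 calls held with the mouse as a block, where the log2 fold changes were 0.39, 0.50 and 0.45 and the adjusted p-values 0.0877, 0.0783 and 0.0854. Against input the call was also lost without mouse 155, 192 or 194 (log2 0.29, 0.40 and 0.29; adjusted p = 0.123, 0.0712 and 0.102), against the negative fraction without mouse 192 or 194 (0.0738 and 0.109), and against whole tissue without mouse 192, 194 or 210 (0.0861, 0.108 and 0.0652) or without the whole tissue library of mouse 210 alone (0.0535). C4a, a near copy of C4b on the same chromosome, had a mean of 0.944 CPM in the astrocyte and 3.37 CPM in the microglial positive fraction, and reads shared by the copies may be split between them.

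C3, the central component, was low in every group. C3 (Entrez 12266, chromosome 17, 57203973 to 57228136) had 2.32, 3.48, 3.43, 4.45 and 3.06 CPM in the whole tissue of mice 192, 194, 209, 210 and 277. Input ranged from 0.663 to 2.00 CPM with a median of 1.66, and did not overlap with whole tissue. The microglial positive fraction ranged from 1.20 to 3.17 CPM with a median of 2.70, and overlapped with both. Against input the positive fraction was 1.59-fold higher in 6 of 6 mice (log2 0.67 ± 0.26, edgeR adjusted p = 0.0488), on counts of 12 to 62.9 per library. C3 met the count minimum only through the positive fraction, where it was higher. That call did not hold under scaling by total counts (adjusted p = 0.055), without the low-count filter (0.0672), with all groups in one fit (0.0837), or without mouse 155, 192, 209, 210 or 277 (0.0687 to 0.141). C3 did not pass against the negative fraction (0.77 ± 0.36, edgeR adjusted p = 0.133) or whole tissue (-0.36 ± 0.25, 0.24).

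Input was lower than whole tissue for C3 in 5 of 5 mice. The comparison did not enter the main test, because neither group met the minimum of 20 counts. The shallow whole tissue library of mouse 210 had 18.9 counts, and the input of mouse 194 had 12. Without the low-count filter the log2 fold change of input over whole tissue was -1.02 ± 0.25 (edgeR adjusted p = 0.00646), and without the whole tissue library of mouse 210 it was -0.96 ± 0.24 (0.00484). In the latter fit C3 met the count minimum only through whole tissue, where it was higher. All 7 endothelial and all 5 tested mural markers were also lower in input than in whole tissue (medians -1.32 and -1.10), and their part in the C3 difference was not tested. In the Aldh1l1-NuTRAP line C3 had 1.68, 1.88 and 0.628 CPM in the positive and 1.08, 1.15 and 0.761 CPM in the negative fractions, which overlap, and was not tested. C3 did not differ detectably between the pulldowns (log2 -0.55 ± 0.40, edgeR adjusted p = 0.245).

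The regulators Serping1 and Cd55 were not concentrated in the microglial pulldown. Serping1 (Entrez 12258, chromosome 2, 84765360 to 84775429) ranged from 4.19 to 9.26 CPM with a median of 7.71 in the Cx3cr1-NuTRAP positive fraction and from 8.42 to 12.1 CPM with a median of 10.6 in input. The groups overlapped at the edge, and mice 155 and 194 had the lowest positive fractions, at 4.19 and 4.32 CPM. It fell against input by 0.60 on the log2 scale (SE 0.19, edgeR adjusted p = 0.0174, lower in 6 of 6 mice). Against the negative fraction and whole tissue the log2 fold changes were -0.50 ± 0.19 and -0.30 ± 0.24 (edgeR adjusted p = 0.0701 and 0.311). DESeq2 called the former at an adjusted p of 0.0391 and the fit with all groups at 0.0494. Fibroblast and meningeal markers were also lower in the positive fraction than in input, 5 of 6, with a median of -0.78 and a summed level of 71.2 to 97.7 against 137 to 178 CPM, and their part in the Serping1 difference was not tested.

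Cd55 (Entrez 13136, chromosome 1, 130439030 to 130462740) ranged only from 3.50 to 4.08 CPM with a median of 3.91 in the microglial positive fraction, against 5.00 to 7.80 CPM with a median of 6.12 in input and 5.06 to 5.96 CPM with a median of 5.34 in the negative fraction. Positive fractions lay below all inputs, all negative fractions and all whole tissue libraries. It was 1.56-fold lower than input (log2 -0.64 ± 0.13, edgeR adjusted p = 0.00116), 1.37-fold lower than the negative fraction (-0.45 ± 0.11, 0.00896) and 1.55-fold lower than whole tissue (-0.63 ± 0.14, 0.00287), in every mouse. Oligodendrocyte markers were also lower in the positive fraction, 7 of 8 against input (median -0.64) and 7 of 8 against the negative fraction (median -0.70), with a summed level of 1265 to 3328 CPM against 4298 to 4950 CPM in input. Mural markers were lower against input in 3 of 5 tested (median -0.64). The part of these cell types in the Cd55 and Serping1 differences was not tested. The near copy of Cd55, Cd55b, had 0.0857 CPM on average in the positive fraction.

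Neither regulator passed the test in the astrocyte pulldown. Serping1 had 6.03, 4.69 and 4.95 CPM in the positive fractions of mice 290, 293 and 294 and 6.23, 5.62 and 5.29 CPM in the negative fractions, which overlap, with the positive fraction lower in 3 of 3 mice in CPM. After TMM scaling its log2 fold change was 0.21 ± 0.23 (edgeR adjusted p = 0.467), and its sign turned to -0.13 under scaling by total counts, which moved the median of all genes in that comparison to -0.31. Cd55 had 4.31, 2.80 and 1.77 CPM in the positive and 4.73, 5.46 and 5.46 CPM in the negative fractions, lower in 3 of 3 mice in CPM without overlap. After TMM scaling the within-mouse log2 ratio was 0.33 in mouse 290, -0.53 in mouse 293 and -1.21 in mouse 294. Its log2 fold change was -0.49 ± 0.36 (edgeR adjusted p = 0.283), and it ranged from -0.95 to -0.16 with a mouse left out, passing only without mouse 290 (adjusted p = 0.0186) among the 9 alternatives. Between the pulldowns the log2 differences were -0.09 ± 0.27 for Serping1 and -0.10 ± 0.27 for Cd55 (edgeR adjusted p = 0.791 and 0.759), with signs that changed among the alternatives.

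**Figure D3:**
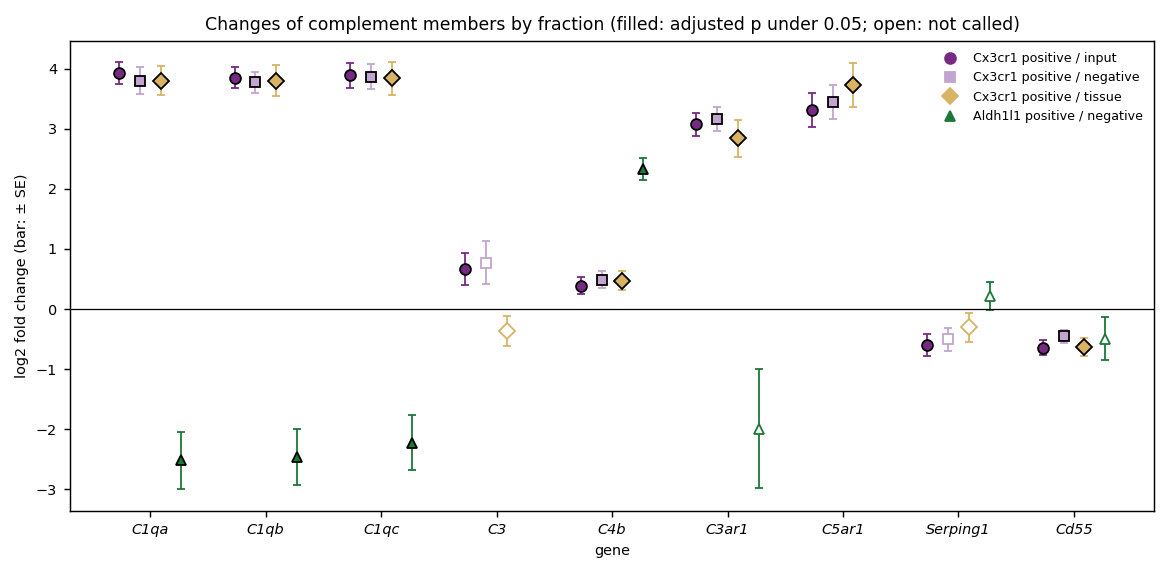
Log2 fold change with its SE for each complement gene in the 3 microglial comparisons and the astrocyte comparison, filled where the adjusted p was under 0.05. C1q chains and receptors sit near 3 to 4 in the microglial line and C1q near -2 in the astrocyte line, C4b is at 2.33 in the astrocyte line, and Serping1 and Cd55 sit below 0 in the microglial line.

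By count, 7 of the 9 members were higher and 2 lower in the microglial positive fraction than in input, where 23.3% of the 13838 genes tested were higher and 25.6% lower. The 7 include C4b and also C3 and C5ar1, which met the count minimum only through the positive fraction. Without the low-count filter 6 were higher, C5ar1 among them (edgeR adjusted p = 3.82e-08) and C3 not, and the number was from 5 to 7 over the alternatives. Against the negative fraction 6 were higher and 1 lower, with 12.8% and 11.6% of all genes tested. Against whole tissue 6 were higher and 1 lower, with 27.5% and 24.3%. In the astrocyte line 7 members were tested, of which 1 was higher (C4b) and 3 were lower (the C1q chains), where 26.8% of genes were higher and 24.8% lower. In the astrocyte pulldown compared with the microglial one, 1 member was higher and 5 lower, where 30.6% and 33.1% of genes were.

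The difference between the lines was tested directly, as the log2 ratio of positive to negative fraction in the Aldh1l1-NuTRAP mice minus that in the Cx3cr1-NuTRAP mice. It was -6.38 ± 0.51 for C1qa, -6.29 ± 0.45 for C1qb, -6.15 ± 0.47 for C1qc and -5.23 ± 0.73 for C3ar1 (edgeR adjusted p = 7.25e-09, 2e-09, 4.72e-09 and 8.32e-06), and for C3ar1 it was -6.53 without mouse 290. C4b differed in the opposite direction, by 1.80 ± 0.25 (edgeR adjusted p = 6.7e-06). C5ar1, which met the count minimum only through the microglial positive fraction, had an edgeR adjusted p of 3.17e-07, and of 3.58e-08 without the low-count filter, with no size given because its astrocyte positive fractions were at 0. C3 (0.02 ± 0.62), Serping1 (0.68 ± 0.32) and Cd55 (-0.09 ± 0.29) did not pass (edgeR adjusted p = 0.983, 0.0789 and 0.799). With the mouse as a block, Serping1 passed at 0.70 (adjusted p = 0.0432). In all, 1 member was called higher and 5 lower, where 25.5% and 29.9% of genes were.

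How closely each member kept to the microglia markers was measured within mice, as its log2 ratio of positive fraction to input minus the median of the 12 markers in the same mouse. C1qa exceeded the marker median by 0.41 ± 0.13, C1qb by 0.33 ± 0.14 and C1qc by 0.35 ± 0.13 (SD, n = 6), each in 6 of 6 mice. C3ar1 lay below it by a difference of -0.47 ± 0.30 in 6 of 6 mice. For these 4 the exact sign-flip permutation p was 0.0312, the smallest that 6 mice can give, in a family of 9 such tests. The C1q log2 fold changes were nevertheless within the range of the single markers, 3.14 to 4.01, while C3ar1 at 3.07 was below it. C5ar1 differed by -0.37 ± 0.28, below the markers in 5 of 6 mice (exact permutation p = 0.0625). The other members were far from the markers, with differences of -2.81 ± 0.57 for C3, -3.06 ± 0.32 for C4b, -4.10 ± 0.79 for Serping1 and -4.08 ± 0.71 for Cd55 (exact permutation p = 0.0312 each, below in 6 of 6 mice). In the astrocyte line, positive against negative fraction, C1qa, C1qb and C1qc were at -0.31 ± 0.28, -0.35 ± 0.53 and -0.10 ± 0.50 from the microglia markers and C3ar1 at -0.14 ± 1.25 (SD, n = 3), with at least 1 mouse above the markers for each but C1qa. C4b, Serping1 and Cd55 lay above the markers in 3 of 3 mice, by 4.58 ± 0.22, 2.46 ± 0.09 and 1.71 ± 0.74, where an exact permutation test of 3 mice cannot go below 0.25.

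**Figure D4:**
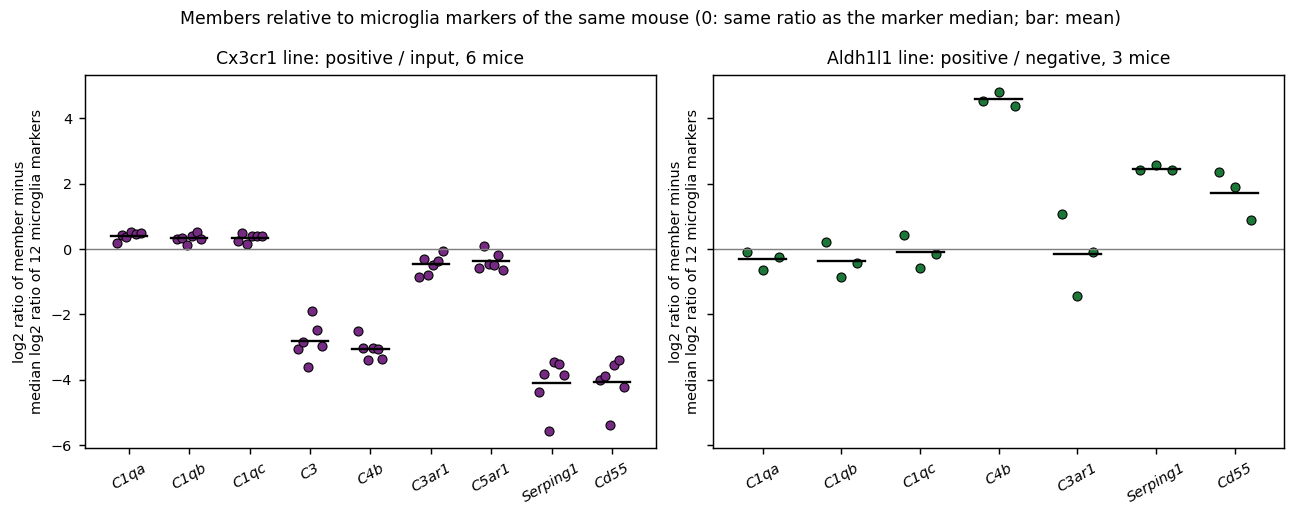
Each point is 1 mouse: the log2 ratio of a complement gene minus the median log2 ratio of the 12 microglia markers of that mouse, for positive fraction over input in the Cx3cr1-NuTRAP line (left) and over negative fraction in the Aldh1l1-NuTRAP line (right), with bars at the mean. C1q chains lie within 0.54 of 0 on the left in every mouse, and C4b lies above 4 on the right.

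The unbound and unfractionated RNA was compared as well. Of the 7 members tested, 0 were called between negative fraction and input of the Cx3cr1-NuTRAP line (edgeR; 0 at an unadjusted p under 0.05 and 0 by DESeq2), where 1.41% of genes were higher and 4.7% lower in the negative fraction. Between input and whole tissue 0 of 7 were called (edgeR; 0 at an unadjusted p under 0.05 and 0 by DESeq2), where 16.3% of genes were higher and 14.2% lower in input. C3 and C5ar1 did not pass the count minimum in either, so the lower C3 of input described above is not in this count. Between the negative fractions of the lines, 0 of 7 were called by edgeR, with 0.125% of genes higher and 0.125% lower in the Aldh1l1-NuTRAP mice, 2 members had an unadjusted p under 0.05, and DESeq2 called the same 2. These were C4b, at 22.9, 25.3 and 20.9 CPM against 24.6 to 43.5 CPM with a median of 36.6 (log2 -0.60 ± 0.17, edgeR adjusted p = 0.171, DESeq2 adjusted p = 0.0322), and Serping1, at 6.23, 5.62 and 5.29 CPM against 8.14 to 12.9 CPM with a median of 9.86 (log2 -0.77 ± 0.17, edgeR adjusted p = 0.108, DESeq2 adjusted p = 0.00236). Serping1 levels did not overlap between the lines, and C4b levels overlapped.

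Of the 46 other genes on a list of the complement pathway, 18 were tested between the microglial positive fraction and input, and 7 were higher, 5 lower and 6 not called, where 23.3% of all genes tested were higher and 25.6% lower, with a median log2 fold change of 0.21 beside a median of -0.003 over all genes tested. The receptor for C3 fragments formed by Itgam and Itgb2 (complement receptor 3) was higher for both subunits, with log2 fold changes of 3.33 ± 0.22 and 3.53 ± 0.19 (edgeR adjusted p = 1.24e-07 and 2.14e-08). So were Fcna, a ficolin of the lectin pathway that met the count minimum only through the positive fraction, at 3.44 ± 0.38, and Cfp, which encodes properdin, at 0.95 ± 0.32 (edgeR adjusted p = 6.44e-06 and 0.0258). Against the negative fraction 6 were higher and 3 lower of 18 tested (12.8% and 11.6% of all genes), and against whole tissue 6 and 6 (27.5% and 24.3% of all genes). Csmd1, a membrane regulator, fell against input by 1.15 on the log2 scale (SE 0.11, edgeR adjusted p = 2.68e-06). Cfp ranged from 9.37 to 37.8 CPM in the positive fraction and from 9.86 to 15.0 CPM in input, which overlap. Against the negative fraction Cfp did not pass (0.79 ± 0.31, edgeR adjusted p = 0.0737).

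In the astrocyte line 16 of the 46 were tested between positive and negative fraction, and 4 were higher, 8 lower and 4 not called, where 26.8% of all genes tested were higher and 24.8% lower, with a median of -0.35 beside 0.04 over all genes tested. Clu, which encodes clusterin, an inhibitor of the terminal pathway, rose by 2.88 ± 0.25, from 732 ± 192 to 4241 ± 645 CPM (SD, n = 3; edgeR adjusted p = 0.00013). C2, whose product joins C4b in the classical C3 convertase, rose by 1.87 ± 0.41, from 2.26 ± 1.20 to 6.30 ± 1.25 CPM (edgeR adjusted p = 0.00701). Itgam, Itgb2, Cfp and Csmd1 had log2 fold changes of -2.18 ± 0.51, -1.94 ± 0.54, -1.39 ± 0.25 and -2.31 ± 0.36 (edgeR adjusted p = 0.00964, 0.02, 0.00303 and 0.00159). Itgb2 met the count minimum here only through the negative fraction, where it was higher. It had 6 to 18 counts in the positive fractions. Between the pulldowns 19 were tested, with 4 higher and 11 lower in the astrocyte line, where 30.6% and 33.1% of all genes were, and a median of -0.89, beside -0.08 over all genes. Log2 differences were -6.28 ± 0.51 for Itgb2, -5.59 ± 0.55 for Itgam and -2.12 ± 0.28 for C8b, and 3.11 ± 0.18 for Clu (edgeR adjusted p from 1.25e-07 to 6.46e-05). Itgb2 and C8b met the count minimum there only through the microglial positive fraction. Fcna is given by its counts alone, from 0 to 4 in the astrocyte and 45.7 to 133 in the microglial positive fractions, since only the latter met the count minimum. C1rb, Mbl1, Fcnb, C9, Csmd2 and C5ar2 had at most 3 counts in every library.

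**Figure D5:**
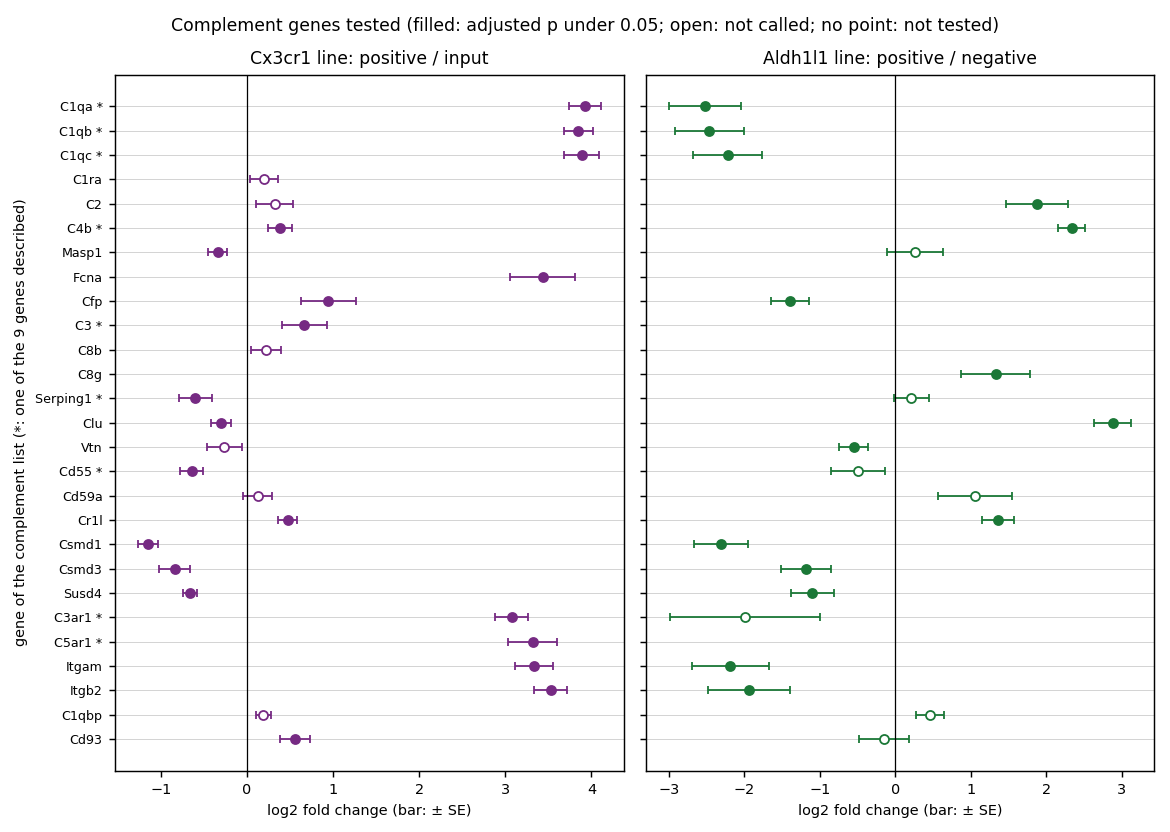
Log2 fold change with its SE for the tested genes of the complement list, 1 of them not shown, in the Cx3cr1-NuTRAP line (positive over input, left) and the Aldh1l1-NuTRAP line (positive over negative, right), filled where the adjusted p was under 0.05. On the left C1q, Fcna, the fragment receptors and the subunits Itgam and Itgb2 lie above 2, and on the right C2, C4b and Clu are the highest.

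Likeness of pattern was described by Pearson's r of log2 CPM over the 29 libraries among 14108 genes. These libraries share mice and fractions, so no p is given. C1qa was most like C1qb (0.997), C1qc (0.996) and Ctss (0.994), and C1qb and C1qc were most like each other (0.998), with Ly86 next outside the complex (0.996 with each). C3ar1 was most like Cd84 (0.97), Cd53 (0.97) and Slc11a1 (0.97), and C5ar1 most like Pde3b (0.98), Lpcat2 (0.98) and Csf1r (0.98). C4b was most like Zfp36l2 (0.94), Pnpla7 (0.94) and Plcb3 (0.93). Serping1 was most like Itih2 (0.84), Aldh1a2 (0.76) and Tgfbr3 (0.72), Cd55 most like Fign (0.77), Plekhg3 (0.76) and Susd5 (0.75), and C3 most like Sigirr (0.71), Cdc25a (0.70) and Sox18 (0.70). Among the members, C1q chains and both receptors had r from 0.92 to 0.998 with one another, and C4b had r between -0.26 and -0.12 with these 5.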

How the data were processed

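Per the study's methods, the authors trimmed the reads and placed them on the mm10 genome with Strand NGS, and per the file headers the rows are RefSeq genes. The deposited raw values are expected counts, since 82.4% of the nonzero ones are not whole (tolerance 1e-06), and were rounded for testing. The log2 values that the authors deposited beside them, after DESeq normalization, were not used. Printed CPM divides the raw value by the library total, without TMM scaling. A gene was tested where at least 1 compared group had over 20 counts in all of its libraries, by the two-sided quasi-likelihood test of edgeR 4.0.16 in R 4.3.3 (TMM scaling, robust dispersion, only the groups compared). Adjusted p-values are Benjamini-Hochberg values over all genes tested, with a threshold of 0.05. The fits were tested on simulated counts with 200 changed genes. Ratios within mice and r used log2 CPM after TMM scaling over all 29 libraries, with a prior count of 2, and ratios were tested by exact sign-flip permutation. Alternatives were DESeq2 1.42.0, RLE or total-count scaling, no low-count filter, all 6 groups in one fit, the mouse as a block, each mouse left out, and, for ratios within mice, a prior count of 0.5 or the marker mean. Leaving out the whole tissue library of mouse 210 was added after seeing the data.

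Mouse numbers mark libraries of the same animal, so they pair the fractions. Deviations from the group means correlated above 0.1 between paired libraries for 3 of 3 Aldh1l1-NuTRAP mice. Among the Cx3cr1-NuTRAP mice this held for 5 of 6 when the unbound RNA was set against input, for 3 of 6 when the positive fraction was set against input or against the unbound RNA, and for 0 of 5 when whole tissue was involved. The block fit is given where it changed a call.

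The members, the lists and the letters searched were chosen with earlier results of these data known. All 9 members are named. Other complement genes are named where they had one of the 6 largest called changes against input, between the astrocyte fractions or between the pulldowns, or at most 3 counts in every library, and beside each member the 3 genes with the highest r. One gene that this rule names is not reported here. The floor of a gene at 0 is 3 counts per library, and floors cover counting error only. Exon lengths are unions of GENCODE exons, and gene positions are those of the deposited table. Tables were prepared with pandas 2.3.3 and numpy 2.4.6 under Python 3.11.15, and plots with matplotlib 3.10.9.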

Additional observations from a re-analysis of the deposited data

Results flagged for a closer look

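Among 36 sets of libraries (9 genes in the 4 Cx3cr1-NuTRAP groups), 5 held a library far from the rest by Dixon's test at the 95% level, which chance gives in about 1 set in 20. In the positive fraction, mouse 194 stood high for C3ar1 (29 CPM) and C5ar1 (15.6 CPM), and the same library had the most microglia marker RNA (6548 CPM summed). In input, mouse 194 stood low for C3 (0.663 CPM) and mouse 192 low for C5ar1 (0.533 CPM). In whole tissue, mouse 210 stood high for C3ar1 (6.49 CPM), in the shallowest library and the one with the most microglia marker RNA of its group (463 CPM). Whether these library features account for the values was not tested.

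The ratio of positive to negative fraction differed between the lines, by a test of the difference itself, for 6 members (edgeR, quasi-likelihood test of the interaction). Adjusted p-values were 7.25e-09 for C1qa, 2e-09 for C1qb, 4.72e-09 for C1qc, 8.32e-06 for C3ar1 and 3.17e-07 for C5ar1, all with the lower ratio in the Aldh1l1-NuTRAP mice (C5ar1 met the count minimum only through the Cx3cr1-NuTRAP positive fraction), and 6.7e-06 for C4b, with the higher ratio there.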

How the results depend on the processing

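C1qa, C1qb, C1qc, C3ar1 and C5ar1 in the Cx3cr1-NuTRAP line, the C1q chains and C4b in the Aldh1l1-NuTRAP line, and Cd55 and Serping1 against input kept their direction and call under every alternative run. The number of members called lower against the negative fraction was 2 with DESeq2 and with all 6 groups in one fit, where edgeR gave 1. In the Aldh1l1-NuTRAP line it was 5 with all groups in one fit, 4 without the low-count filter, and from 3 to 5 with a mouse left out, the 5 being without mouse 290. Between input and whole tissue it was 1 in place of 0 without the low-count filter, with all groups in one fit and without the whole tissue library of mouse 210, and from 0 to 1 with a mouse left out (1 without mouse 194 or 210), C3 being that gene without the filter and without that library. Between negative fractions it was 2 with DESeq2. For the difference between lines the number called higher was 2 with all groups in one fit and with the mouse as a replicate block, against 1 in the reported fit. Chain ratios and differences from the markers moved by less than the spread between mice under the alternatives run for them. The block changed no call beyond those given for C4b, C3ar1 and Serping1.

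Log2 values that changed sign, none of them called, were Serping1 in the Aldh1l1-NuTRAP line under total-count scaling (-0.13), Serping1 and Cd55 between the pulldowns with all groups in one fit (0.0187 and 0.000414) and with a mouse left out (-0.23 to 0.10 and -0.48 to 0.19), and, between lines, C3 under total-count scaling (-0.27), with the replicate block (-0.17) and with a mouse left out (-0.16 to 0.28), and Cd55 with a mouse left out (-0.50 to 0.23). The cause of these changes was not tested. Between the lines, scaling by total counts moved the median of all genes from -0.11 to -0.39. Low counts limit C3, C5ar1 outside the microglial pulldown and C3ar1 in the Aldh1l1-NuTRAP line, where a difference may be present and not detectable.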
